A study of Mus musculus with 15 samples.

Results

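Lgr5 and Ascl2 are the genes most widely used to mark the stem cells at the base of the intestinal crypt, and the data described here are all peaks of histone marks, open chromatin and ATOH1 binding around them. The members were chosen by position alone, as every peak that overlapped 1 of 2 windows of mouse genome build mm9. The Lgr5 window was chr10:114870000-115060000, with the gene at about 114887000 to 115025000 on the minus strand, and the Ascl2 window was chr7:150130000-150180000. Of 778471 peaks in the 12 lists, 130 were members, 99 of them in the Lgr5 window and 31 in the Ascl2 window.

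H3K4me2 was mapped by chromatin immunoprecipitation sequencing in epithelium of C57BL/6 mice, with 1 library of Lgr5+ intestinal stem cells (ISC), 2 of secretory progenitors (Sec-Pro), 2 of enterocyte progenitors (Ent-Pro), 1 of goblet cells (GOB) and 1 of enterocytes (ENT). H3K27ac and DNase I hypersensitive sites (DHS) were each mapped in 1 Sec-Pro and 1 Ent-Pro library, and ATOH1 in 1 Sec-Pro library through an antibody against FLAG. ISC were sorted for green fluorescent protein from crypts of Lgr5-eGFP-Cre mice. Sec-Pro were crypt cells with Rbpj deleted (H3K4me2 replicate 1) or from mice given dibenzazepine, DBZ, an inhibitor of Notch (H3K4me2 replicate 2). The replicates are written Sec-Pro 1, Sec-Pro 2, Ent-Pro 1 and Ent-Pro 2 below. For the other Sec-Pro libraries the labels do not say which of the preparations was used. Ent-Pro and ENT came from crypts and villi of Atoh1-/- mice, and GOB from villi of Rbpj-/- mice. The labels give no age and do not name the Cre driver of the deletions, and they mention a cell sort for ISC alone. Genotype or treatment and lineage go together in these groups and cannot be told apart. A reporter of this kind is commonly a knock-in at Lgr5 itself, and the labels do not say whether that holds here. Its part in the ISC peaks at Lgr5 was not tested.

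LGR5 is a receptor for R-spondins, secreted proteins that strengthen Wnt signalling, and in the intestine it marks the crypt base columnar stem cells. ASCL2 is a basic helix-loop-helix transcription factor that these cells need and that, like LGR5, is encoded by a target gene of Wnt signalling. H3K4me2 is found at promoters and enhancers, including ones that are not active, whereas H3K27ac is found at active ones and DHS mark open chromatin. ATOH1, another basic helix-loop-helix factor, is required for secretory cells and binds E-boxes, which read CANNTG.

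The sequence just upstream of Ascl2 is shown for the E-boxes at the start of the gene, the motif class bound by ATOH1 and ASCL2. The sequence is from RefSeq, build GRCm38.p6, where 1 of the 2 genes, Ascl2, was matched, at chr7:142969215-142969514 on the minus strand. It runs 5′ to 3′ across the annotated start, most of it upstream, and capitals mark E-boxes.
Ascl2 promoter: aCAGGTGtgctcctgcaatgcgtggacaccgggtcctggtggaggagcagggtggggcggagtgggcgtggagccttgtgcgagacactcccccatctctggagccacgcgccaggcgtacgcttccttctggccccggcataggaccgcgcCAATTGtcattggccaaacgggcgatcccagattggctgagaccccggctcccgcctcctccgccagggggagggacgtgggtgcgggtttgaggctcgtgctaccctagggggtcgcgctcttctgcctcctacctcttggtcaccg
The E-boxes were CAGGTG at bases 2 to 7 and CAATTG at bases 153 to 158 of the 300. An E-box on either strand occurred in 72.3% of the 32851 promoters of the table. CTTTG, the core of the TCF motif through which Wnt signalling acts on DNA, was not found on either strand and occurred in 53.9% of promoters. G and C made up 67.0% of the Ascl2 promoter, against a median of 52.7% over all promoters. The build differs from that of the peaks, so the promoter was not placed against them.

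The lists held 15240 to 92279 peaks, and their read depth is unknown. The ISC list stood apart from the other H3K4me2 lists. It covered 33.4 Mb in short peaks with a median width of 341 bp, whereas the others covered 57.0 to 75.0 Mb with medians of 371 to 621 bp. Its highest score was 37.7, against 218 to 321 in the others. The score is the authors' own value for each peak, and its scale is not named. It is given below as the percentile of a peak within its own list, which shows no change between lists. The H3K4me2 lists also fall into kinds by their shortest peak, which was 200 bp in Sec-Pro 1 and Ent-Pro 2 and 146 bp in the remaining 5. ISC, GOB and ENT have 1 library each, so their differences from other populations have no replicate check and were not tested. Sec-Pro and Ent-Pro have 2 each, where the smallest exact permutation p is 0.333. In bulk chromatin, fewer cells with the mark and less of the mark per cell cannot be told apart.

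To ask how the mark at these genes changes as stem cells differentiate, the 7 H3K4me2 lists were compared. At Lgr5 it covered less in both mature lists than in any crypt list. It was spread over most regions of the locus in ISC and Sec-Pro 2, over fewer in Ent-Pro 1 and Sec-Pro 1, and in Ent-Pro 2 over the same 4 regions as in ENT. It covered 12328 bp of the window in ISC, in 31 peaks. Coverage in Sec-Pro was 9710 bp in library 1 (11 peaks) and 22334 bp in library 2 (18 peaks), and in Ent-Pro it was 13037 bp in library 1 (12 peaks) and 7674 bp in library 2 (7 peaks). In mature cells it covered 3235 bp in GOB, in 3 peaks, and 4564 bp in ENT, in 5 peaks. The progenitor libraries overlapped, with means of 16.0 ± 8.93 kb in Sec-Pro and 10.4 ± 3.79 kb in Ent-Pro (SD, n = 2 each), and the ISC value lay between the lowest and the highest of them. An exact two-sided permutation test of Sec-Pro against Ent-Pro gave p = 0.667. With 2 libraries each its smallest p is 0.333, so it cannot decide whether they differ. The 2 lists of each population differ in kind by shortest peak, and those of Sec-Pro also in preparation. The SD includes these differences, and the test does not take list kind into account.

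**Figure D1:**
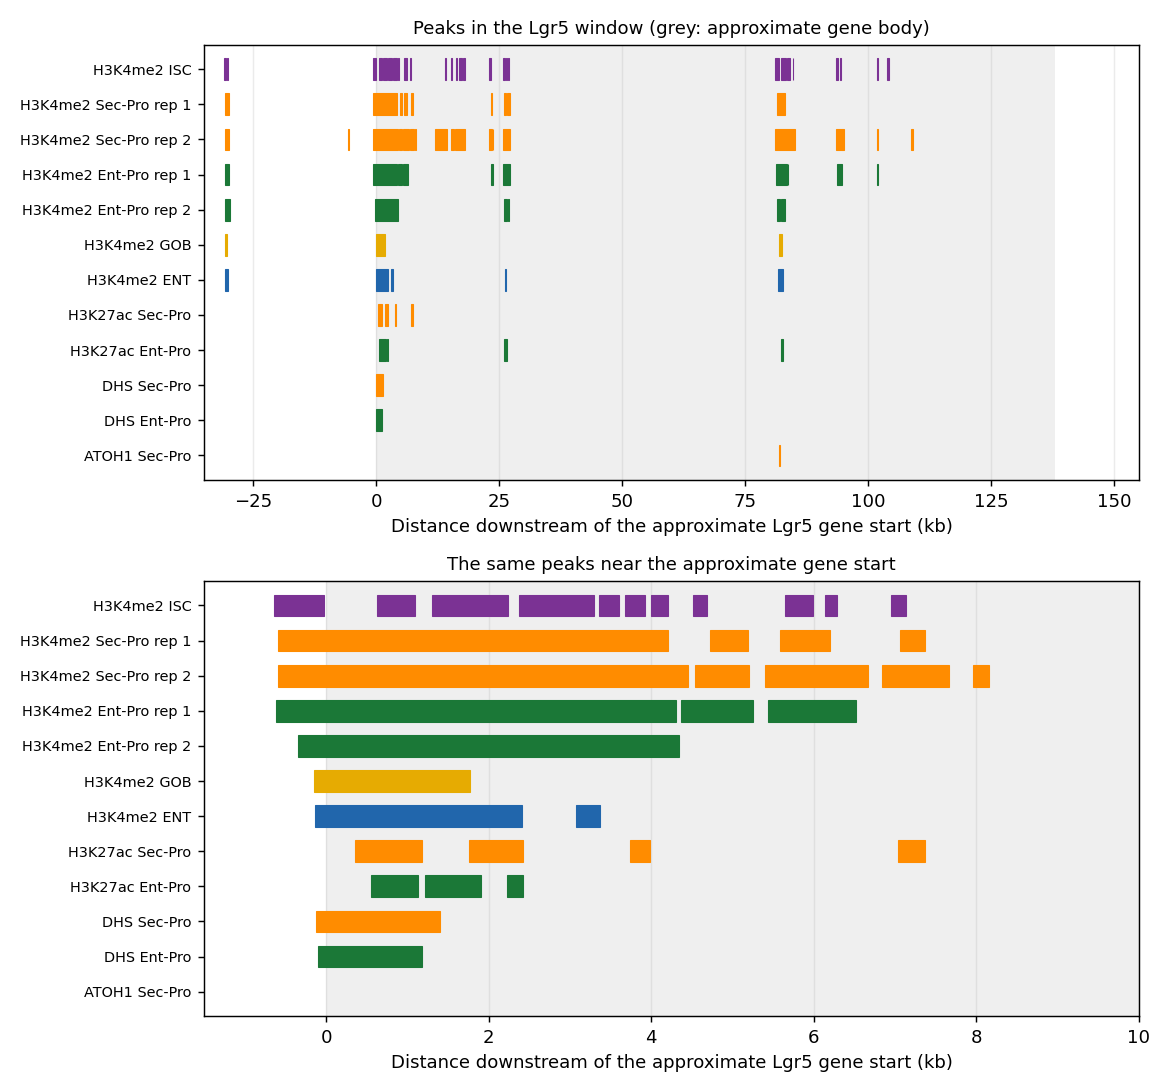
Peaks of the 12 lists in the Lgr5 window (above) and near the gene start (below), by distance in kb downstream of the approximate start of the gene, which is shaded grey. Each bar is a peak, drawn at least as wide as a line, and colours stand for populations. ISC and Sec-Pro 2 have peaks across the first part of the gene, whereas GOB and ENT keep 3 and 4 of the 12 regions.

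The ISC covered length was 3.81-fold that of GOB and 2.70-fold that of ENT, although the whole ISC list covered 0.519-fold the length of the GOB list and 0.481-fold that of the ENT list. Among all genome windows of 190 kb in which either list covered at least 1 kb, the ISC length reached 2-fold that of GOB in 2.45% of 6768 windows and 2-fold that of ENT in 1.14% of 6837 windows. The median fold over these windows was 0.568 for ISC over GOB and 0.525 for ISC over ENT. The Lgr5 window was thus on the other side of 1 from the typical window in both comparisons, and 99.0% and 99.3% of windows had a lower fold.

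Against progenitors, the side of 1 on which the fold lay differed between libraries. ISC covered 0.769-fold the mean length of Sec-Pro and 1.19-fold that of Ent-Pro, and single libraries gave 0.552-fold and 1.27-fold for Sec-Pro and 0.946-fold and 1.61-fold for Ent-Pro. The background, windows in which ISC covered at least 2-fold the length in the progenitor, was 0.00% of 7066 windows for Sec-Pro and 0.100% of 6966 for Ent-Pro, and Lgr5 was not among them. The median window had 0.510 for ISC over Sec-Pro and 0.520 for ISC over Ent-Pro, and 96.1% and 99.7% of windows had a lower fold than Lgr5. Relative to the typical window, the folds over both progenitor means were thus high, as were those over GOB and ENT.

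**Figure D2:**
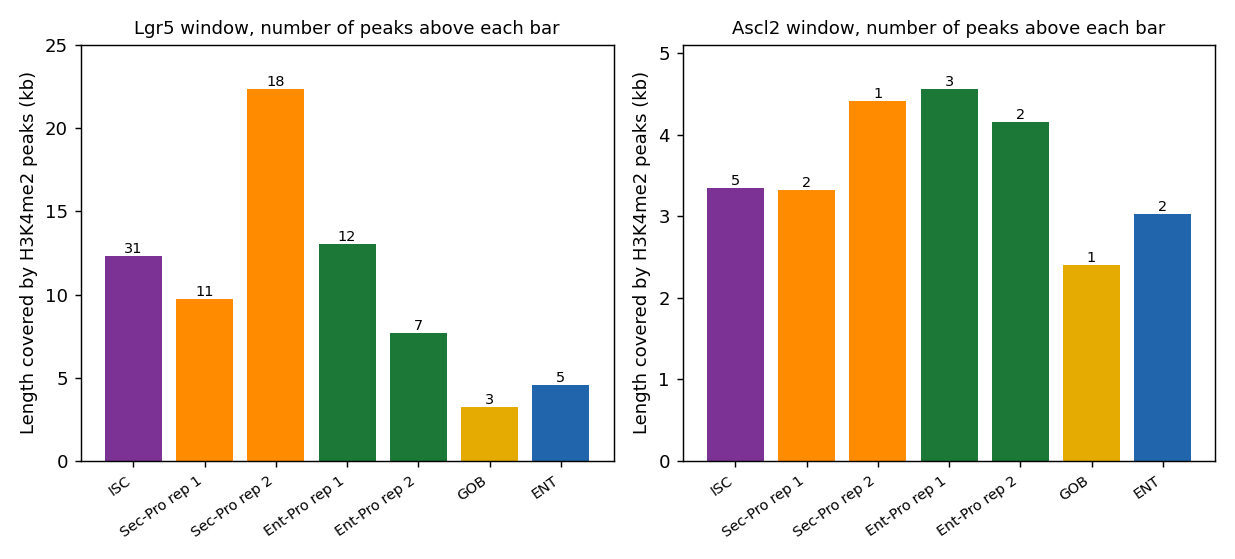
Length covered by H3K4me2 peaks in kb in the Lgr5 window (left) and the Ascl2 window (right), 1 bar per library in the order of the lineage, with the number of peaks above each bar. At Lgr5 the GOB and ENT bars, at 3235 and 4564 bp, are below all crypt libraries, and at Ascl2 the GOB bar, at 2406 bp, is the lowest of bars that reach 4561 bp.

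The 31 ISC peaks at Lgr5 were 149 to 1190 bp wide. Of these, 28 lay in the gene, and the other 3 lay upstream, the nearest of them 24 bp from the approximate start. A peak was counted as shared where at least 1 bp overlapped. In both Sec-Pro libraries 17 of the 31 were found, against 85.4% of all 68407 ISC peaks. In both Ent-Pro libraries 14 were found, against 86.1%. GOB held 7 of them, against 80.4% of all ISC peaks, and ENT held 10, against 85.0%. The Lgr5 counts were below the background in all 4 comparisons, and most so in mature cells. The difference between progenitor and mature counts depended on how the ISC signal was split into peaks and on which peaks were kept by score. With peaks within 1 kb merged, 10 ISC peaks remained, 4 in Sec-Pro, 4 in Ent-Pro, 3 in GOB and 4 in ENT. Among peaks in the upper 50% of each list by score, 14 ISC peaks remained. Of these, 7 were in Sec-Pro, 7 in Ent-Pro, 5 in GOB and 5 in ENT. All 6 other lists held 7 of the ISC peaks, against 72.3% of all ISC peaks.

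Library kind moved with the progenitor counts. Of the lists with a shortest peak of 146 bp, Sec-Pro 2 held 30 of the 31 ISC peaks and Ent-Pro 1 held 21, against backgrounds of 95.9% and 95.1%. Of the lists with 200 bp, Sec-Pro 1 held 17 and Ent-Pro 2 held 14, against 85.9% and 86.6%. Sec-Pro held more of the ISC peaks than Ent-Pro in both kinds of list. The covered length of Sec-Pro 2 was 1.71-fold that of Ent-Pro 1 and the length of Sec-Pro 1 was 1.27-fold that of Ent-Pro 2, neither reaching the 2-fold found in 2.91% and 0.952% of windows. GOB and ENT had the same shortest peak as ISC. Their lists still differed from it, covering 64.4 and 69.5 Mb against 33.4 Mb, with unknown depth. Whether such differences between lists have a part in their low counts was not tested.

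Measured in bases rather than peaks, the order was the same. Of the bases that ISC peaks covered at Lgr5, Sec-Pro 1 covered 53.9%, Sec-Pro 2 93.6%, Ent-Pro 1 69.3%, Ent-Pro 2 45.9%, GOB 16.6% and ENT 24.8%. Over all ISC peaks, Sec-Pro 1 covered 87.5%, Sec-Pro 2 95.6%, Ent-Pro 1 95.0%, Ent-Pro 2 87.7%, GOB 77.9% and ENT 84.1%. Sec-Pro 2 was near its share over all peaks, and the other 5 lists were below theirs.

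**Figure D3:**
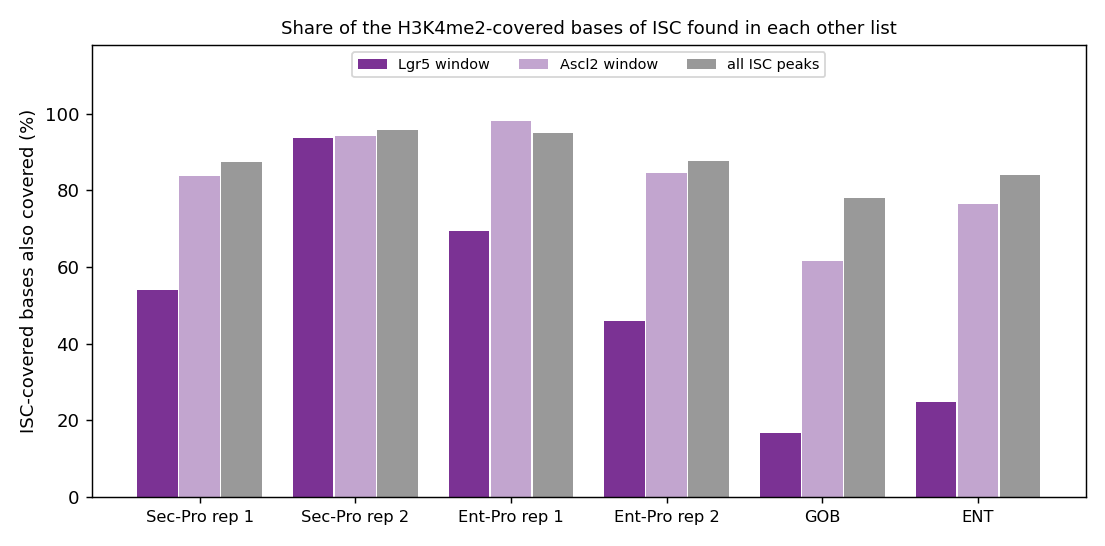
Percentage of the bases covered by ISC peaks that each other H3K4me2 list also covers, in the Lgr5 window, in the Ascl2 window and over all ISC peaks, 1 group of bars per library. At Lgr5 the shares run from 93.6% in Sec-Pro 2 to 16.6% in GOB, whereas over all peaks they run from 95.6% to 77.9%.

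Peaks of all 12 lists that lay within 500 bp of each other were joined, which gave 12 regions at Lgr5. ISC marked 10 of them with H3K4me2, Sec-Pro 1 marked 5, Sec-Pro 2 marked 11, Ent-Pro 1 marked 7, Ent-Pro 2 marked 4, GOB marked 3 and ENT marked 4. The same 3 regions were marked in all 7 lists. They were the gene start, a region 30.4 kb upstream and a region inside the gene 83.0 kb from its start. How often joined regions over the genome are marked in each list, or in all 7, was not counted.

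The gene start held the widest peaks of the locus. Each progenitor library had 1 peak there (4792 bp in Sec-Pro 1, 5045 bp in Sec-Pro 2, 4916 bp in Ent-Pro 1 and 4691 bp in Ent-Pro 2), which began between 115020543 and 115020794 and ended between 115025346 and 115025610. These were wider than 99.2% to 99.5% of the peaks of their lists. In ISC the same stretch was broken into 7 peaks, of which the one furthest upstream, at 115025024 to 115025635, had the highest score (percentile 86.9). In GOB the peak at the gene start was 1917 bp, at 115023233 to 115025149 (score percentile 81.0), and in ENT it was 2547 bp, at 115022594 to 115025140 (77.8), with a further peak of 297 bp inside the gene. The mature peaks kept the side of the gene start and not the part further into the gene.

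How much of the wide progenitor peaks was still covered in mature cells was compared with all progenitor peaks of at least 3 kb. GOB covered 40.0% of the gene start peak of Sec-Pro 1 and 38.0% of that of replicate 2, against medians of 91.9% and 86.0%. Coverage under 50% was found for 7.36% of 1996 and 11.8% of 2598 such peaks. ENT covered 57.9% of the gene start peak of Ent-Pro 1 and 60.6% of that of replicate 2, against medians of 90.2% and 96.2%. Coverage by ENT under 50% was found for 4.87% of 3077 and 2.35% of 1869 peaks, and the Lgr5 peak was not among them. In both lineages the shares at Lgr5 were below the median of wide peaks.

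The region 30.4 kb upstream, at 115054818 to 115055884, was covered for 697 bp in ISC, 946 bp in Sec-Pro 1, 938 bp in Sec-Pro 2, 713 bp in Ent-Pro 1, 954 bp in Ent-Pro 2, 538 bp in GOB and 580 bp in ENT. GOB and ENT were again the lowest, by less than at the gene start. The highest-scoring ISC peak of the locus lay in it (115055124 to 115055395, percentile 90.0). Its best peak stood at percentile 75.7 and 85.1 in Sec-Pro, 71.4 and 84.7 in Ent-Pro, 57.6 in GOB and 46.3 in ENT. No H3K27ac, DHS or ATOH1 peak lay in this region.

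The region 83.0 kb into the gene, at 114939991 to 114944015, held 4 ISC peaks that covered 3005 bp. It was covered for 1468 bp in Sec-Pro 1, 3939 bp in Sec-Pro 2, 2395 bp in Ent-Pro 1, 1345 bp in Ent-Pro 2, 780 bp in GOB and 990 bp in ENT, so that GOB and ENT were also below all crypt libraries. In Sec-Pro 2 it was 1 peak of 3939 bp, of which GOB covered 19.8%. The sole ATOH1 peak of both windows lay here, at 114942975 to 114943147 (173 bp, score percentile 52.9). Each of the 7 H3K4me2 lists overlapped it, which was the case for 33.1% of all 15240 ATOH1 peaks. No DHS of either progenitor overlapped it, and of all ATOH1 peaks 39.2% had one.

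The other regions at Lgr5 lay inside the gene or close upstream of it and were mostly crypt regions. At 114997735 to 114999260, ISC, all 4 progenitor libraries and ENT had H3K4me2 and GOB had none, with 1060 bp in ISC, 684 to 1526 bp in the progenitors and 150 bp in ENT. At 115001185 to 115002072, ISC, both Sec-Pro libraries and Ent-Pro 1 were marked. In all, 8 of the 12 regions had no H3K4me2 peak in GOB or ENT, against 19.0% of 68836 regions joined in the same way over the genome. Of the 12, 3 were marked in 1 list alone, a count for which the share over the genome was not computed.

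A pair of neighbouring regions was marked in ISC and Sec-Pro 2 and in no other list. The first, at 115006903 to 115009798, held 5 ISC peaks that covered 1418 bp and 2 Sec-Pro 2 peaks that covered 2820 bp. The second, at 115010684 to 115013017, held 1 ISC peak of 303 bp and a Sec-Pro 2 peak of 2334 bp. The Sec-Pro peaks stood at score percentiles of 60.1 to 68.0 and the ISC peaks at 9.34 to 46.2. With the peaks elsewhere in the window, 9 ISC peaks were found in Sec-Pro 2 and not in Ent-Pro 1, against 2.37% of all ISC peaks, and none the other way round, against 1.51%. The 5 and 1 ISC peaks of this pair are among the 9, so neighbouring peaks of the same regions were counted separately. Sec-Pro 1, the library with Rbpj deleted, had no peak in these regions. Its shortest peak was 200 bp and that of Sec-Pro 2 was 146 bp, so preparation and list kind cannot be told apart here.

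Of the 31 ISC peaks at Lgr5, 21 were in neither GOB nor ENT, and in either of them 10 were found, against 88.0% of all ISC peaks. The 21 stood at score percentiles of 9.34 to 61.2 within the ISC list, and 6 of them lay above the list's median. Those with the highest scores were 114997966 to 114998282, at percentile 61.2, and 114998811 to 114999251, at 60.3. The ISC peak at 114920872 to 114921173 (percentile 23.2) was in no other list. Among ISC peaks found in 1 mature list, 3 were in ENT and not GOB, a share near the 7.62% of all ISC peaks. None were in GOB and not ENT, against 2.99%. The ISC peak at 114998345 to 114998646 met only an ENT peak of 150 bp, at score percentile 15.1 of its list. That at 115021402 to 115021639 met only an ENT peak of 297 bp, at percentile 10.2. The last of the 3, at 115021710 to 115022632, also met the ENT peak of the gene start.

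**Figure D4:**
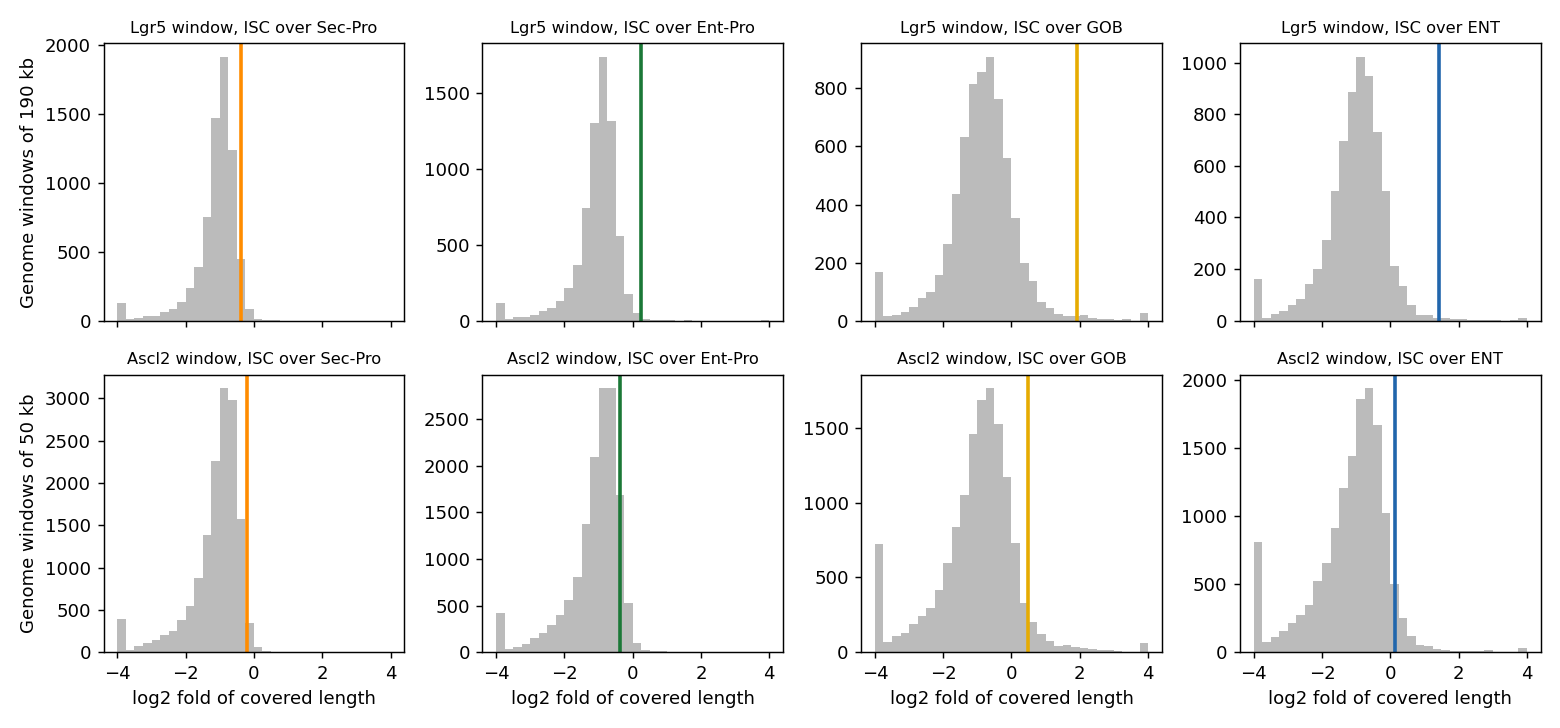
Number of genome windows of 190 kb (above) and 50 kb (below) by log2 fold of the length covered by H3K4me2 peaks, ISC over each other population, with folds beyond the axis collected in the end bars. The coloured line marks the Lgr5 window, at 3.81-fold over GOB and 2.70-fold over ENT, and the Ascl2 window, at 1.39-fold over GOB and 1.11-fold over ENT.

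At Ascl2 the mark was kept in every population, and the difference between crypt and mature cells was smaller than at Lgr5. H3K4me2 covered 3351 bp of the window in ISC, 3328 bp in Sec-Pro 1, 4414 bp in Sec-Pro 2, 4561 bp in Ent-Pro 1, 4165 bp in Ent-Pro 2, 2406 bp in GOB and 3026 bp in ENT. Mature cells were again the lowest, but ENT lay close to ISC and to Sec-Pro 1. The progenitor means were 3.87 ± 0.768 kb in Sec-Pro and 4.36 ± 0.280 kb in Ent-Pro (SD, n = 2 each, exact two-sided permutation p = 0.667). As at Lgr5, the SD includes differences of list kind and, in Sec-Pro, of preparation. Within each kind of list, Sec-Pro 2 covered 0.968-fold the length of Ent-Pro 1 and Sec-Pro 1 covered 0.799-fold that of Ent-Pro 2, where 3.38% and 1.20% of windows reached 2-fold.

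The ISC length at Ascl2 was 0.866-fold that of Sec-Pro, 0.768-fold that of Ent-Pro, 1.39-fold that of GOB and 1.11-fold that of ENT. Of genome windows of 50 kb, the ISC length reached 2-fold in 0.0339% over Sec-Pro, 0.0482% over Ent-Pro, 2.52% over GOB and 1.23% over ENT, and Ascl2 did not reach it in any of the 4 comparisons. The median window had 0.522 over Sec-Pro, 0.527 over Ent-Pro, 0.548 over GOB and 0.521 over ENT. Of the same windows, 97.9% had a lower fold over Sec-Pro, 90.1% over Ent-Pro, 95.0% over GOB and 94.7% over ENT. The fold over Sec-Pro was 1.01 without Sec-Pro 2, so its direction rests on that library.

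All but 1 of the 5 ISC peaks at Ascl2 lay in a single region, at 150150915 to 150155797, that was marked in all 7 lists. The strongest, at 150153737 to 150155741, was 2005 bp wide, wider than 99.0% of ISC peaks, with a score percentile of 83.6. In the other lists the main peak of this region was 3128 bp wide in Sec-Pro 1, 4414 bp in Sec-Pro 2, 4110 bp in Ent-Pro 1, 3356 bp in Ent-Pro 2, 2406 bp in GOB and 2410 bp in ENT. The main peaks stood at score percentiles of 87.9 and 95.7 in Sec-Pro, 97.0 and 89.9 in Ent-Pro, 89.5 in GOB and 92.5 in ENT. The Ascl2 peak was thus among the stronger peaks of mature lists too.

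**Figure D5:**
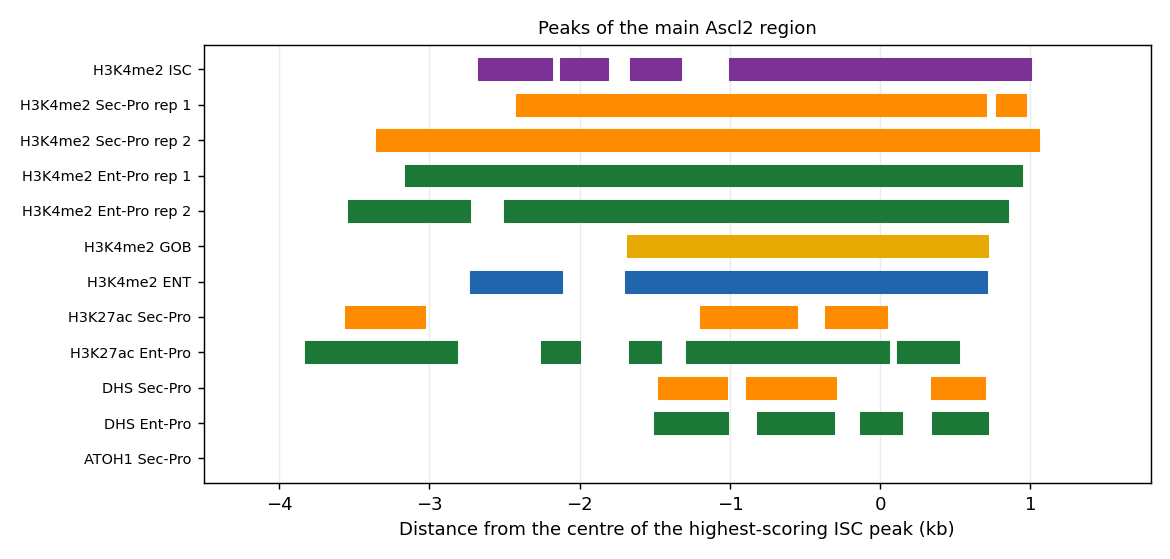
Peaks of the 12 lists in the main Ascl2 region, by distance in kb from the centre of the highest-scoring ISC peak, with colours for populations. All 7 H3K4me2 lists cover the right part, whereas the left part is covered in the progenitors, in ISC and for 616 bp in ENT, and not in GOB.

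The populations differed at 1 side of the region. The GOB peak, at 150153055 to 150155460, and the main ENT peak, at 150153041 to 150155450, began at nearly the same base, whereas the main progenitor peaks began between 150151384 and 150152314. ENT also had a separate peak at 150152008 to 150152623, which begins within that range, and GOB had none there. ISC peaks at 150152062 to 150152552 (percentile 66.6) and 150152607 to 150152926 (29.1) were in ENT and not in GOB. Both Sec-Pro libraries held 4 of the 5 ISC peaks, both Ent-Pro libraries 4, GOB 2 and ENT 4, beside the backgrounds of 85.4%, 86.1%, 80.4% and 85.0% given above. Only the GOB count was far from its background, and it rests on 5 peaks. The remaining ISC peak, at 150131743 to 150131937 (percentile 17.6), was found otherwise in Ent-Pro 1 alone.

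GOB covered 76.3% and 54.5% of the main Ascl2 peaks of Sec-Pro 1 and 2. ENT covered 73.6% and 83.4% of those of Ent-Pro 1 and 2. None of these were under 50%, and all were below the medians of wide peaks given above.

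At Lgr5, Sec-Pro had 4 H3K27ac peaks that covered 2058 bp, and Ent-Pro had 5 that covered 2515 bp. Of the Sec-Pro peaks 2 were in Ent-Pro, against 79.8% of all Sec-Pro peaks, and of the Ent-Pro peaks 3 were in Sec-Pro, against 77.4%. The Sec-Pro peaks all lay in the region of the gene start, with centres from 0.77 to 7.20 kb into the gene. The peak with the highest score, at 115017632 to 115017963, was the furthest in. It stood at percentile 58.2 and was not in Ent-Pro. Ent-Pro had peaks near the gene start, the highest-scoring at 115023869 to 115024445 (percentile 50.3), and also at 114998462 to 114999140 (42.9) and 114942435 to 114942802 (15.7). The last of these lay in the region of the ATOH1 peak, without overlap. Neither progenitor had a replicate for H3K27ac, so their difference could not be tested.

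At Ascl2, Sec-Pro had 3 H3K27ac peaks that covered 1585 bp, and Ent-Pro had 5 that covered 3248 bp. All bases of the Sec-Pro peaks were also covered in Ent-Pro. The fold of Sec-Pro over Ent-Pro was 0.488, against 0.934 for the whole lists. The highest-scoring peak was 645 bp at 150153543 to 150154187 in Sec-Pro (percentile 56.9) and 1349 bp at 150153449 to 150154797 in Ent-Pro (71.3).

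At Lgr5 each progenitor had 1 DHS, at the gene start, of 1530 bp at 115023593 to 115025122 in Sec-Pro (score percentile 55.2) and 1280 bp at 115023819 to 115025098 in Ent-Pro (61.9). Both were wide for a DHS, wider than 99.4% and 98.2% of their lists. At Ascl2, Sec-Pro had 3 DHS that covered 1420 bp and Ent-Pro had 4 that covered 1655 bp, and 1328 bp were shared. In Sec-Pro they were 150153261 to 150153721 (percentile 65.2), 150153845 to 150154447 (64.3) and 150155082 to 150155437 (22.9). In Ent-Pro they were 150153235 to 150153725 (82.1), 150153918 to 150154433 (67.1), 150154607 to 150154885 (18.7) and 150155087 to 150155455 (62.9). The DHS at 150154607 was in Ent-Pro alone. All 3 Sec-Pro sites were found in Ent-Pro, against 85.4% of all Sec-Pro DHS, and 3 of the 4 Ent-Pro sites in Sec-Pro, against 70.2% of all Ent-Pro DHS.

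The DHS of both progenitors at Lgr5 lay wholly inside the GOB peak and the ENT peak of the gene start, and the other 2 GOB and 4 ENT peaks of the window held none. The share of all mature peaks that hold a DHS was not counted. The GOB and ENT lists had 86922 and 88489 peaks, against 31980 DHS in Sec-Pro and 38595 in Ent-Pro. At Ascl2 all 3 Sec-Pro DHS lay wholly inside the GOB peak and the ENT peak, and of the 4 Ent-Pro DHS 4 lay inside the GOB peak and 3 inside the ENT peak. Over all DHS, 49.1% of Sec-Pro sites lay wholly inside GOB peaks and 40.2% inside ENT peaks, and of Ent-Pro sites 45.0% and 37.6%. No ATOH1 peak was listed in the Ascl2 window.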

How the data were processed

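The tools named in the submitters' processing notes are CASAVA 1.7, Bowtie 0.12.7 and MACS2, with build mm9. Their parameters and any use of input DNA are not given in the sources used. The authors deposited 1 peak list per library, with 5 columns and no header, holding position, name and an unnamed score. The 3 input samples were not analysed here. Of the libraries, 12 have lists, and nothing says whether replicates came from separate animals. Python 3.11.15 with NumPy 2.4.6 served for interval arithmetic and matplotlib 3.10.9 for figures. Counting was checked on made-up lists of 2000 sites, where 6 of 6 known answers were recovered.

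Positions are 1-based. Genome windows tile the autosomes and chromosome X. Sec-Pro and Ent-Pro covered lengths were compared by an exact permutation test over libraries. No other test was made, since other groups have 1 library. Both genes, the windows and the measures were chosen with earlier results of these data known, and the 3 kb, 500 bp and 50% limits after the peaks were seen. Named peaks were drawn from all ISC, DHS and ATOH1 peaks of the windows and the best-scoring peak of each other list. Further H3K4me2 and H3K27ac peaks were named after their values were seen. Alternatives were an overlap of 50% of the ISC peak, peaks scored in the upper 50% of their list, equal numbers of peaks per list, merging within 1 kb, windows changed by 10 kb, lists of 1 kind by shortest peak, and leaving out each progenitor library. Other stem cell genes were not located, for want of mm9 gene positions.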

Additional observations from a re-analysis of the deposited data

How the results depend on the processing

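Of 120 values under 11 alternatives, 88 kept close to the reported value, which means within 1.5 times for counts and for folds over GOB or ENT, and within 1 SD between libraries for folds over Sec-Pro or Ent-Pro. This count does not measure robustness. With lists of 1 kind, values over GOB and ENT could not change, and progenitor values repeated those with 1 library left out. The SD came from the same 2 libraries that were left out in turn. The covered length of ISC stayed above that of GOB and ENT in both windows under every alternative run, at 2.72 to 5.76-fold over GOB and 1.89 to 3.56-fold over ENT at Lgr5, and at 1.04 to 1.61-fold over GOB and 1.04 to 1.39-fold over ENT at Ascl2. Requiring 50% of the ISC peak left 2 Lgr5 peaks shared with GOB and 4 with ENT. In the upper 50% of each list by score, 14 ISC peaks remained at Lgr5, with 7 in Sec-Pro, 7 in Ent-Pro, 5 in GOB and 5 in ENT. At Ascl2 2 remained, with 2 in Sec-Pro, 2 in Ent-Pro, 1 in GOB and 1 in ENT. The folds were then 0.802 over Ent-Pro at Lgr5, which turned round, 0.496 over Sec-Pro at Lgr5, and 0.662 over Sec-Pro and 0.669 over Ent-Pro at Ascl2. Lists of equal length left 2 Ascl2 peaks in ENT. Merging within 1 kb gave 10 ISC peaks at Lgr5, with 4 in Sec-Pro, 4 in Ent-Pro, 3 in GOB and 4 in ENT, and 2 at Ascl2, with 1 in each other population. The fold was then 1.03 over Sec-Pro, which turned round, 1.73 over Ent-Pro and 5.76 over GOB at Lgr5, and 0.858 over Ent-Pro at Ascl2. With 10 kb added to the window it was 0.710 over Ent-Pro at Ascl2. With lists of the 146 bp kind, 30 Lgr5 peaks were in Sec-Pro, and the fold over Ent-Pro turned to 0.946. Leaving out 1 progenitor library at a time gave 17 to 30 Lgr5 peaks in Sec-Pro and 14 to 21 in Ent-Pro, and 4 to 4 and 4 to 5 at Ascl2. It gave folds of 0.552 to 1.27 over Sec-Pro and 0.946 to 1.61 over Ent-Pro at Lgr5, and 0.759 to 1.01 over Sec-Pro and 0.735 to 0.805 over Ent-Pro at Ascl2. The progenitor directions at Lgr5, and that over Sec-Pro at Ascl2, thus rest on single libraries, and the cause was not tested. No paired analysis was possible because only Ent-Pro replicates are numbered in the labels. Depth is unknown, so a missing peak is not shown to be absent.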

Other observations

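Some gaps under 1 kb between neighbouring ISC peaks held part of a DHS or of the ATOH1 peak, 3 of 21 at Lgr5 and 1 of 3 at Ascl2, against 39.8% of 32843 such gaps over the genome. They are described for their position, and at Lgr5 their share was below that background. At the Lgr5 gene start, ISC peaks left a gap of 650 bp at 115024374 to 115025023, all of which lay in the DHS of both progenitors. A second ISC gap there, of 206 bp at 115023697 to 115023902, lay in the Sec-Pro DHS for its whole length and in the Ent-Pro DHS for 84 bp. At Ascl2, an ISC gap of 323 bp at 150153414 to 150153736 held 308 bp of a Sec-Pro DHS and 312 bp of an Ent-Pro DHS. The progenitor, GOB and ENT lists had no gap at these 3 places, and Sec-Pro 1 had another of 68 bp at Ascl2 that held 14 bp of an Ent-Pro DHS.

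At the ATOH1 peak in Lgr5, ISC left a gap of 273 bp that held 147 of its 173 bp. Sec-Pro 1 left a gap of 149 bp that held 52 bp of it, and Ent-Pro 2 one of 186 bp that held 33 bp. The other 4 lists had no gap there.

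Bases covered in all 7 H3K4me2 lists came to 1838 bp at Lgr5, in 7 stretches, and to 2045 bp at Ascl2, in 2 stretches, the longer of them 1705 bp at 150153737 to 150155441. The share of ISC-covered bases that this makes up was larger at Ascl2, where ISC covered 3351 bp, than at Lgr5, where it covered 12328 bp. It cannot exceed the share of ISC-covered bases found in GOB, 16.6% at Lgr5 and 61.6% at Ascl2, so it largely repeats that difference. The share common to all 7 lists over the genome was not computed.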
